A study of Homo sapiens with 60 samples.

Results

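The 24 h cadmium treatment of 1321N1 cells was compared with non-treated cells kept for 24 h, gene by gene and library by library, using the 3 cadmium libraries and the 3 non-treated libraries that the sample titles give for 24 h, 6 of the 60 libraries of the study. 1321N1 is a human cell line that the study describes as astrocyte-derived and as an astrocytoma line. The cells received 2.3 µM cadmium chloride or no metal in DMEM with serum, and both groups were lysed in the plate after 24 h. The other libraries held mercury chloride at 20 µM, sodium metaarsenite at 2.55 µM, and 4 earlier time points from 1.5 to 12 h, and each concentration was the one the study chose as an LC20 for a longer treatment. Both groups come from 1 cancer-derived line in culture without other cells of the brain. RNA was read from the 3′ end of the transcripts, so that longer transcripts do not give more reads, and the deposited values are whole-number counts per gene. The series calls its 3 libraries per group technical triplicates, and p-values therefore measure the spread between these libraries, which may not cover that between independent cultures.

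Cadmium has no known role in human cells and binds the same thiol groups as zinc. Metallothioneins, small cysteine-rich proteins, bind both metals, and their genes are switched on by the zinc-sensing transcription factor MTF1 through short metal response elements in their promoters. Metals that bind thiols also unfold proteins and oxidize cells, which is known to engage HSF1 with the heat-shock genes and NRF2 with the antioxidant genes.

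Between 2912801 and 4404609 reads were counted per library. Values are given as CPM, which are read counts scaled to a library size that is normalized by TMM (trimmed mean of M values), for replicates 1, 2, and 3 in this order, and as log2 fold change (LFC) with its standard error from edgeR's quasi-likelihood fit of all 60 libraries, with p adjusted by Benjamini-Hochberg over 12341 genes. They are shares of each library, so that fewer cells and less RNA per cell cannot be told apart. The common coefficient of variation between replicates was 0.120. Among the astrocyte markers, GFAP, S100B, AQP4, and ALDH1L1 had 0 counts in all 6 libraries, which allows up to 3 counts, or about 0.853 CPM in the non-treated libraries, by counting error alone. VIM, CD44, SOX9, NFIA, and GJA1 were counted in every library, with 4600.1, 4975, and 3014 CPM with cadmium and 3504, 3637, and 4317 CPM in non-treated cells for VIM, the intermediate filament of mesenchymal and glial cells. NES, the remaining astrocyte marker tested, had an LFC of -1.22 (adjusted p = 0.295). The markers SLC1A2, SLC1A3, FABP7, and ALDOC had at most 6 counts in any of the 6 libraries and were not tested. Genes that every cell is known to use were also at or near 0 in these libraries, with 0 counts for the proteasome gene PSMA2 and at most 3 for the glycolysis gene ALDOA, so that a 0 says only that no read was assigned to the gene. The cell type rests on the study's description. None of the 6 astrocyte markers tested and not the 1 tested marker of other cell types, SYT1, passed the test.

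Cadmium changed 270 of the 12341 genes at an adjusted p under 0.05, of which 192 were higher (1.56% of the genes tested) and 78 were lower (0.632%). Beyond an LFC of 1 in either direction, 65 genes were higher (0.527%) and 12 were lower (0.0972%). The median LFC of all genes was -0.0069, and 6032 of the 12341 genes had an LFC above 0. The shares of 1.56% higher and 0.632% lower are the background for the counts of called members in the lists below. Without adjustment, 1574 genes had a p under 0.05. The 3 libraries of one group lay wholly above or below those of the other for 262 of the 270 genes and for all 77 beyond an LFC of 1. Over all genes tested, 7.59% lay above and 7.33% below in this way. Of the genes called, 180 of the 192 and 75 of the 78 were protein-coding.

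**Figure D1:**
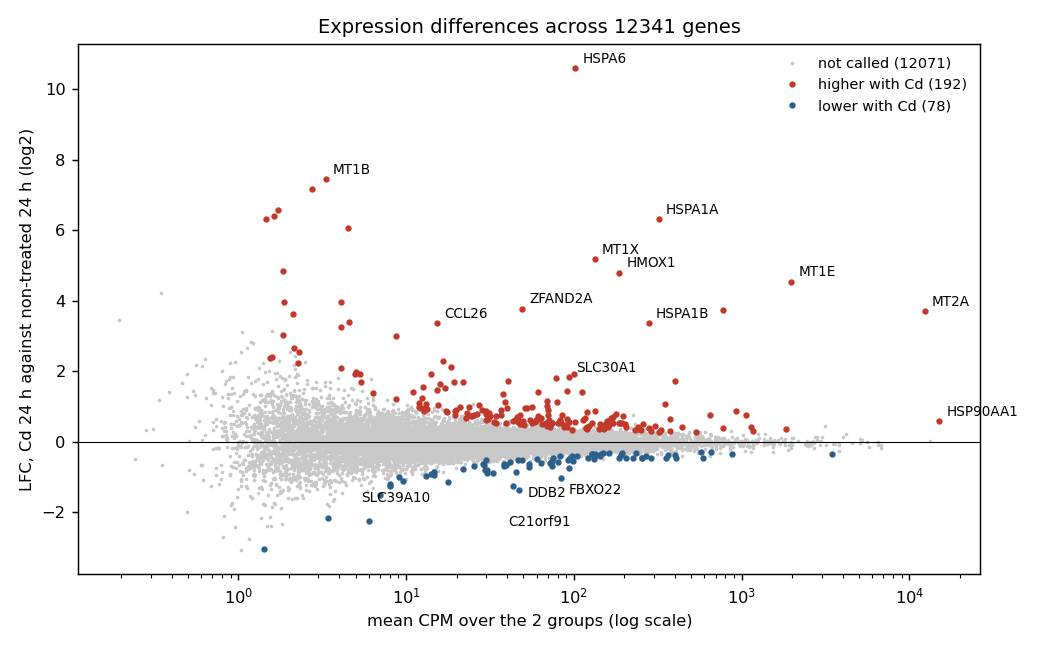
Each point is 1 of 12341 genes, with the mean CPM of the 2 groups on a log axis and the LFC of cadmium against non-treated cells at 24 h on the vertical axis. The 192 genes higher with cadmium reach much farther from 0 than the 78 lower ones, and MT2A and HSP90AA1 are the called genes at the right edge.

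These counts depended on how the spread was estimated. A fit of the 6 libraries alone called 64 genes higher and 10 lower. Without replicate 3 of both groups, 297 genes were higher and 121 lower, whereas 112 and 38 were called without replicate 1, and 116 and 35 without replicate 2. Each of the 270 genes kept its sign in each of these fits that tested it. In all 9 fits that left out a library or a replicate number, 77 genes were called, 67 higher and 10 lower. The 270 genes were selected with these same libraries, so that a kept sign is only a description of them.

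The metallothioneins were among the genes that moved most. Of the 12 metallothionein genes listed, 4 had enough counts to be tested, and all 4 were higher (of all genes tested, 1.56% were). MT1B among them had no count in the non-treated libraries and so could be called only as higher. MT2A, MT1E, and MT1X were counted in every non-treated library. The promoters of MT2A and MT1X, and that of the zinc exporter gene SLC30A1, are shown with the metal response element cores in capitals, since these are the sequences through which MTF1 is known to act. Each line gives the 250 bases before the transcription start from RefSeq (GRCh38.p14), 5′ to 3′ on the strand of the gene.
MT2A, chr16:56608334-56608583 (+ strand): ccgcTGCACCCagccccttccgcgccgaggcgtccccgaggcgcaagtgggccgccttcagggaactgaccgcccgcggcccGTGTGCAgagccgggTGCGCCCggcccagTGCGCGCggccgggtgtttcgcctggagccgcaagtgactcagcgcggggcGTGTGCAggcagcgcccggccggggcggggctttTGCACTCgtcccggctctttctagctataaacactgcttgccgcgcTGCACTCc
MT1X, chr16:56682220-56682469 (+ strand): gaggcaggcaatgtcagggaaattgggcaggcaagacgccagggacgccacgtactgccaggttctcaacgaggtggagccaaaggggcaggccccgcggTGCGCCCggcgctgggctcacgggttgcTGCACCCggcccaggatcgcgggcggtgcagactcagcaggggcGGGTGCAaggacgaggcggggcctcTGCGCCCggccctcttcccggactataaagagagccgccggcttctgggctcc
SLC30A1, chr1:211579162-211579411 (- strand): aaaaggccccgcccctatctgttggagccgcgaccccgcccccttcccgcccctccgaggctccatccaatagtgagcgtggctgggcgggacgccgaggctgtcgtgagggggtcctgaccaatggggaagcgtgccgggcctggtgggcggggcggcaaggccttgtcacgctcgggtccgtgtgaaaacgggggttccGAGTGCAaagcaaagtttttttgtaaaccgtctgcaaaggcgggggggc
The search was for the cores TGCACNC and TGCGCNC on both strands, where N is any base, and no match overlapped another. MT2A held 7 of them, MT1X held 4, MT1B held 3, and SLC30A1 held 1. MT1E is not in the promoter table. A core was found in 24.8% of all 35116 promoters of the same length, where a gene can have several. The other shares count 1 promoter per gene symbol. They were 33.9% of 9446 symbols tested and 37.6% of 141 higher with cadmium. Beyond an LFC of 1 the share was 28.9% of 45 higher symbols, and it was 45.6% of 57 lower ones. A single core is thus a common string. The number of cores in a window is a description of its letters.

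MT2A, the most abundant metallothionein here, was counted at 21585, 22089, and 24943 CPM with cadmium and 1852, 1759, and 1649.5 CPM in non-treated cells. The cadmium libraries were all far above the non-treated ones (LFC 3.71 ± 0.21, adjusted p = 1.32e-23), and MT2A alone took up 2.16% to 2.38% of all counts with cadmium and 0.169% to 0.186% without. MT1E stood at 3774, 3943, and 3676 CPM with cadmium and 158, 161, and 174 CPM in non-treated cells (LFC 4.53 ± 0.12, adjusted p = 2.95e-42), a 23.1-fold difference with no overlap. MT1X stood at 269, 243, and 265 CPM with cadmium and 9.53, 6.76, and 4.91 CPM in non-treated cells (LFC 5.17 ± 0.19, adjusted p = 3.28e-33). For MT1B, 4.09, 7.16, and 8.62 CPM with cadmium faced 0 counts in all 3 non-treated libraries, at least 7.76-fold higher when the non-treated group is set at 3 counts per library. MT1G was below the filter, with 5, 6, and 10 counts in the cadmium libraries and 0 in the non-treated ones, and MT1A, MT1F, and MT1M had 0 counts in all 6. All 4 calls held in each of the 9 fits without a library or a replicate number and in the fit of the 6 libraries alone. The genes are close copies: of all 50-base stretches within the final 400 transcript bases, 6.11% of MT2A, 6.20% of MT1E, 18.4% of MT1B, and 34.7% of MT1X also occur in transcripts of other genes, so that some reads may have been placed with a relative or left out.

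One gene without a symbol followed the metallothioneins. ENSG00000289942 is a long non-coding RNA of 115 bases on chromosome 4 (GRCh38, 68376551 to 68376665, plus strand), away from the metallothionein cluster on chromosome 16. It was counted at 1391, 1434, and 1505 CPM with cadmium and 101, 109, and 118 CPM in non-treated cells (LFC 3.72 ± 0.14, adjusted p = 1.52e-32). Its sequence aligned with the MT2A transcript over 100 positions, of which 97 were identical. Reads of one and the other may not be told apart, and its share in the MT2A count was not tested.

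**Figure D2:**
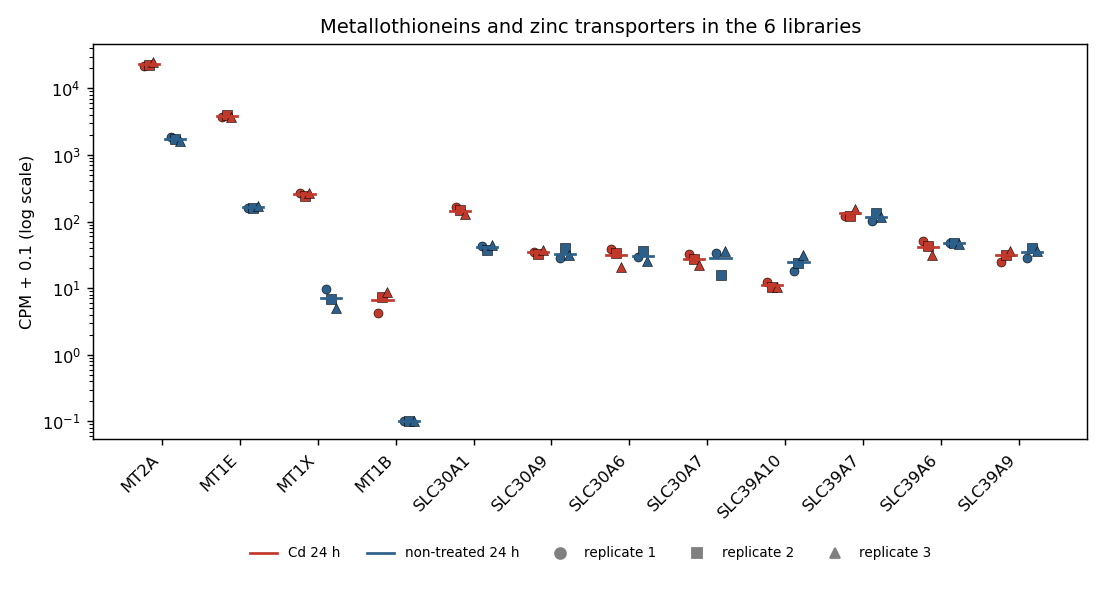
CPM plus 0.1 on a log axis for 4 metallothioneins and 8 zinc transporters in the 6 libraries, with a symbol for each replicate, red for cadmium, blue for non-treated cells, and a line at the mean of each group. The metallothioneins and SLC30A1 lie above the non-treated libraries and SLC39A10 lies below, while the other transporters overlap.

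Of the 6 zinc exporters of the SLC30 family that were tested, 1 was higher and none was lower, and of the 10 importers of the SLC39 family, 1 was lower and none was higher. SLC30A1, which moves zinc out of the cell across the plasma membrane and is a known MTF1 target, was counted at 163, 147, and 128 CPM with cadmium and 42.2, 37.5, and 44.1 CPM in non-treated cells (LFC 1.82 ± 0.13, adjusted p = 5.95e-18). Every cadmium library lay well above every non-treated one, a 3.54-fold difference. SLC39A10, a plasma membrane importer, was at 12.3, 10.3, and 10.4 CPM with cadmium and 18.03, 23.98, and 31.7 CPM in non-treated cells (LFC -1.14 ± 0.28, adjusted p = 0.00965). The groups did not overlap, but the non-treated libraries differed among themselves, and the call was lost in the fit of the 6 libraries (adjusted p = 0.0779), without cadmium replicate 2 (0.0584), and without non-treated replicate 3 (0.12). The LFC of the other exporters lay between -0.07 and 0.09 and that of the other importers between -0.16 and 0.34. SLC39A14 overlapped, with 78.2, 83.03, and 35.6 CPM with cadmium and 52.8, 57.8, and 85.1 CPM in non-treated cells, where replicate 3 was the lowest cadmium and the highest non-treated library. Without replicate 3 of both groups it was called higher (LFC 0.56, adjusted p = 0.029). The transcript of MTF1 itself did not pass the test (LFC 0.10, adjusted p = 0.87), nor did those of HSF1 (LFC -0.01) and NFE2L2, which encodes NRF2 (LFC 0.12). Of the 13 regulators tested, 1 was called, MAFK, a small partner protein of NRF2 and BACH1, at 60.7, 70.7, and 91.98 CPM with cadmium and 32.2, 45.2, and 36.1 CPM in non-treated cells (LFC 0.97 ± 0.19, adjusted p = 0.000486). MAFK was higher in every cadmium library than in any non-treated one. In the fit without replicate 3 of both groups, 3 regulators were called higher.

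Cytosolic chaperone genes formed the other group with steep rises. Of the 11 HSP70 and HSP110 genes tested, 6 were higher and none was lower, with a median LFC of 1.08 against -0.0069 for all genes, and this median is the same with the 2 members whose non-treated libraries are at the floor set at their lower bound. These 2, HSPA6 and HSPA2, could be called only as higher, and they are among the 6. HSPA6, an inducible HSP70 that is nearly silent in unstressed cells, had 207, 214, and 191 CPM with cadmium. In non-treated cells it had 1, 0, and 0 counts, and it was thus at least 239-fold higher. Its promoter is shown with the stretch that matches the heat-shock element in capitals.
HSPA6, chr1:161524290-161524539 (+ strand): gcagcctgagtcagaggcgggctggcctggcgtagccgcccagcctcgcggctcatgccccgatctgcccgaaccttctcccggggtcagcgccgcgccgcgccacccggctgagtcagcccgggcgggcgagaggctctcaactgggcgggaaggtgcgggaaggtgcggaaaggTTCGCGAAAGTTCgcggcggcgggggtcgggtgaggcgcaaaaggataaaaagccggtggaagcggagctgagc
The search was for the blocks GAA, TTC, and GAA, or TTC, GAA, and TTC, with 2 bases of any kind between blocks, on both strands. HSPA6 held 1 match, and none of the other 4 called members with a promoter in the table did. Of all promoters, 0.441% held a match. The strict letters leave out elements with a mismatch, and no match says only that these letters are not in the window.

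HSPA1A, the main inducible HSP70, was counted at 657, 715, and 522 CPM with cadmium and 10.6, 5.84, and 6.92 CPM in non-treated cells (LFC 6.32 ± 0.20, adjusted p = 4.47e-37). HSPA1B, which encodes the same protein, was at 547, 573, and 404 CPM with cadmium and 45.8, 39.96, and 63.5 CPM in non-treated cells (LFC 3.35 ± 0.16, adjusted p = 5.82e-27), a difference of 10.2-fold. Replicate 3 was the lowest cadmium library for both, still far above every non-treated library. Of the 50-base stretches of HSPA1A, 6.76% also occur in HSPA1B, so that their split is uncertain to that extent. HSPH1, the HSP110 nucleotide exchange factor, went from 221, 225, and 229 CPM to 455, 503, and 469 CPM (LFC 1.08 ± 0.08, adjusted p = 1.16e-17), with narrow spread in both groups. HSPA2, at 3 counts or fewer in every non-treated library, was at least 3.90-fold higher (adjusted p = 0.0179), a call lost without cadmium replicate 2 (adjusted p = 0.0832), without non-treated replicate 1 (0.119), and without non-treated replicate 2 (0.134). HSPA14, a ribosome-associated HSP70, had an LFC of 0.84 (adjusted p = 0.0193), and its call was lost in the fit of the 6 libraries (adjusted p = 0.18), without cadmium replicate 3 (0.096), without non-treated replicate 1 (0.123), and without non-treated replicate 2 (0.105). The constitutive members HSPA8 and HSPA4 did not pass the test (LFC 0.28 and 0.05).

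Fewer of the partners of HSP70 and of the HSP90 system were called. Of 12 cytosolic DNAJ genes tested, 3 were higher and none was lower, with a median LFC of 0.10, and in the fit of the 6 libraries 1 of them, DNAJB1, was called. Of all genes tested, 1.56% were higher. DNAJB1, the HSP40 that feeds clients to inducible HSP70, was counted at 563, 555, and 737 CPM with cadmium and 182, 213, and 171 CPM in non-treated cells (LFC 1.71 ± 0.12, adjusted p = 1.26e-18), with replicate 3 as the highest cadmium library. DNAJB4 had a smaller count and an LFC of 0.99 (adjusted p = 0.000685, and 0.054 in the fit of the 6 libraries). DNAJA1 had an LFC of 0.31, and its call was lost in the fit of the 6 libraries (adjusted p = 0.245) and without non-treated replicate 1 (0.0839). Of 11 small heat-shock and BAG genes, 3 were higher and none was lower. CRYAB, the small heat-shock protein alpha B-crystallin, was at 776, 782, and 871 CPM with cadmium and 486, 485, and 469 CPM in non-treated cells (LFC 0.75 ± 0.08, adjusted p = 5.92e-11). BAG3, which links HSP70 to selective autophagy, was at 123, 124, and 74.02 CPM with cadmium and 69.02, 58.7, and 62.9 CPM in non-treated cells (LFC 0.76 ± 0.13, adjusted p = 7.26e-05), and here cadmium replicate 3 came close to the non-treated level. The BAG3 call held without any library but not in the fit of the 6 libraries (adjusted p = 0.0979). HSPB1, or HSP27, had an LFC of 0.35, and its call was lost in the fit of the 6 libraries (adjusted p = 0.124), without cadmium replicate 3 (0.173), without non-treated replicate 1 (0.12), without non-treated replicate 2 (0.0523), and without non-treated replicate 3 (0.0634).

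Among 13 genes of HSP90 and its co-chaperones, 2 were higher, none was lower, and 12 had an LFC above 0. In the fit without replicate 3 of both groups 4 were called higher, and in that without replicate 1 of both groups 1 was. Of all 12341 genes tested, 1.56% were called higher and 6032 had an LFC above 0. HSP90AA1, the inducible cytosolic HSP90 and one of the most abundant transcripts here, was at 17085, 17774, and 19273 CPM with cadmium and 12126, 12641, and 11604 CPM in non-treated cells (LFC 0.57 ± 0.07, adjusted p = 7.82e-10). All 3 cadmium libraries were above all non-treated ones. Of its 50-base stretches, 10.6% also occur in other genes, pseudogenes among them. The HSP90 co-chaperone FKBP4 had an LFC of 0.62, and its call was lost without replicate 1 of both groups (adjusted p = 0.0718). Of 10 chaperonin genes, all had an LFC above 0 and 1 was called, HSPE1, the mitochondrial co-chaperonin, with an LFC of 0.39. Its call was lost in the fit of the 6 libraries (adjusted p = 0.146), without replicate 1 of both groups (0.0516), and without replicate 2 of both groups (0.105).

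Genes of protein degradation had 1 large rise. ZFAND2A encodes AIRAP, a proteasome-associated protein named after its induction by arsenite, and it stood at 72.3, 87.04, and 115 CPM with cadmium and 4.38, 11.4, and 4.62 CPM in non-treated cells (LFC 3.77 ± 0.25, adjusted p = 1.87e-19), with replicate 2 as the highest non-treated library and replicate 3 as the highest cadmium library. SQSTM1, the autophagy receptor p62, was at 435, 409, and 527 CPM with cadmium and 314, 307, and 255 CPM in non-treated cells (LFC 0.64 ± 0.09, adjusted p = 3.33e-07), without overlap. These 2 were among the 6 of 23 ubiquitin and autophagy genes that were higher, with none lower, a list of which 4 were called without replicate 3 of both groups and 2 in the fit of the 6 libraries. MAP1LC3B, which encodes the autophagosome protein LC3B, was at 85.5, 85.9, and 55.3 CPM with cadmium and 40.95, 43.3, and 53.7 CPM in non-treated cells (LFC 0.73 ± 0.14, adjusted p = 0.000334). Cadmium replicate 3 lay just above the highest non-treated library, and the call was lost in the fit of the 6 libraries (adjusted p = 0.141), without replicate 1 of both groups (0.108), and without replicate 2 of both groups (0.0578). GABARAPL1 had an LFC of 1.98, with its call lost in the fit of the 6 libraries (adjusted p = 0.0577) and without non-treated replicate 1 (0.0784). None of the 31 proteasome genes tested was called in either direction, with a median LFC of 0.08, whereas without replicate 3 of both groups 3 were higher and 1 was lower.

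**Figure D3:**
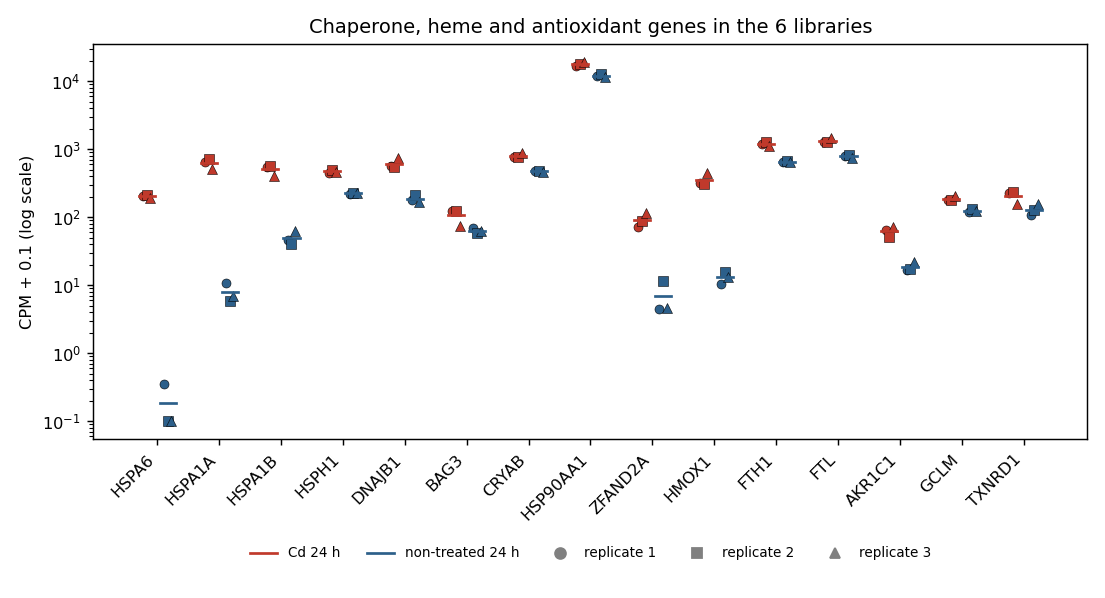
CPM plus 0.1 on a log axis for 15 chaperone, heme, iron, and antioxidant genes in the 6 libraries, with a symbol for each replicate and a line at the group mean. The inducible HSP70 genes, ZFAND2A, and HMOX1 are separated by more than a factor of 5 between groups, and TXNRD1 is the gene whose groups touch.

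Heme and iron genes were higher in 4 of 16 members tested, and none was lower. Of all genes tested, 1.56% were higher. HMOX1, heme oxygenase 1, which degrades heme and releases its iron, was counted at 324, 310.1, and 442 CPM with cadmium and 10.3, 15.7, and 12.98 CPM in non-treated cells (LFC 4.79 ± 0.18, adjusted p = 1.84e-33), a 27.7-fold difference. The highest cadmium library was replicate 3. The ferritin heavy chain gene FTH1 was at 1204, 1302, and 1111 CPM with cadmium and 649, 670.5, and 642 CPM in non-treated cells (LFC 0.88 ± 0.08, adjusted p = 2.03e-14). The light chain gene FTL was at 1276, 1267, and 1443 CPM with cadmium and 806, 823, and 746 CPM in non-treated cells (LFC 0.75 ± 0.08, adjusted p = 2.09e-10). Both ferritin subunits, which together store iron, were higher in every cadmium library than in any non-treated one. Of the 50-base stretches, 26.1% of FTH1 and 7.41% of FTL also occur in other genes, pseudogenes among them. The heme transporter gene SLC48A1 had an LFC of 0.75, and its call was lost in the fit of the 6 libraries (adjusted p = 0.163), without cadmium replicate 3 (0.153), and without non-treated replicate 2 (0.0603).

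Antioxidant genes were called mostly among the reductases. Of 21 glutathione genes tested, 1 was higher and none was lower. This was GCLM, the modifier subunit of the enzyme that makes gamma-glutamylcysteine, at 182, 177, and 208 CPM with cadmium and 122, 130.3, and 123 CPM in non-treated cells (LFC 0.59 ± 0.10, adjusted p = 1.1e-05). The cadmium libraries were all above the non-treated ones by a modest step. The catalytic subunit gene GCLC had an LFC of 0.12 and the cystine transporter gene SLC7A11 an LFC of 0.18, and neither passed the test (adjusted p = 0.914 and 0.541). Among 32 thioredoxin, reductase, and NADPH genes, 7 were higher and none was lower, 8 were higher without replicate 3 of both groups, and 2 in the fit of the 6 libraries. AKR1C1, an aldo-keto reductase, was at 64.5, 50.97, and 71.1 CPM with cadmium and 17, 17.5, and 21.9 CPM in non-treated cells (LFC 1.72 ± 0.16, adjusted p = 1.44e-13), with no overlap. Since 31.4% of its 50-base stretches also occur in its relatives, AKR1C2 first, the share of each is uncertain. UGDH, which makes UDP-glucuronate, had an LFC of 0.61 (adjusted p = 9.9e-05), and AKR1B1 had an LFC of 0.48 (adjusted p = 0.0016, and 0.054 in the fit of the 6 libraries). TXNRD1, the cytosolic thioredoxin reductase, was called although its groups touched, at 225, 232, and 156 CPM with cadmium and 107, 126, and 156 CPM in non-treated cells (LFC 0.66 ± 0.15, adjusted p = 0.00514). Its replicate 3 had the same level with and without cadmium, and the call was lost in the fit of the 6 libraries (adjusted p = 0.13), without cadmium replicate 1 (0.0522), without cadmium replicate 2 (0.066), and without non-treated replicate 1 (0.101). TXNRD1 was also the single call among 16 selenoproteins. NQO1, another reductase of this group, had an LFC of 0.35, with the call lost in the fit of the 6 libraries (adjusted p = 0.305), without cadmium replicate 1 (0.0666), and without cadmium replicate 2 (0.0978).

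Stress of the endoplasmic reticulum and the integrated stress response, in which phosphorylated eIF2 alpha favours translation of ATF4, were represented by partly different genes. Of the 26 tested genes of the integrated stress response, 9 were higher and none was lower, with a median LFC of 0.37 against -0.0069 for all genes, and 7 were called in the fit of the 6 libraries and 10 without replicate 3 of both groups. PPP1R15A, or GADD34, which brings the phosphatase to eIF2 alpha, was at 109.8, 121, and 134 CPM with cadmium and 33.2, 35.97, and 35.5 CPM in non-treated cells (LFC 1.80 ± 0.15, adjusted p = 9.59e-15). ATF3, a stress-induced transcription factor, was at 25.7, 36.6, and 28.4 CPM with cadmium and 6.70, 7.38, and 6.64 CPM in non-treated cells (LFC 2.12 ± 0.27, adjusted p = 2.44e-08). Neither had overlapping groups. SESN2, a sestrin that restrains mTORC1, was at 48.6, 51.3, and 64.3 CPM with cadmium and 22.7, 18.1, and 22.2 CPM in non-treated cells (LFC 1.37 ± 0.18, adjusted p = 3.68e-08). STC2, a secreted glycoprotein, was at 165, 149, and 203 CPM with cadmium and 102, 107, and 74.4 CPM in non-treated cells (LFC 0.86 ± 0.12, adjusted p = 2.94e-07). In the same list, DDIT3, which encodes CHOP, had an LFC of 1.47 (adjusted p = 1.17e-06), GDF15, a secreted stress cytokine, an LFC of 1.92 (2.14e-06), DDIT4 an LFC of 1.05 (0.000293), and CEBPB an LFC of 0.73 (1.76e-05), and no single library removed these calls, while that of DDIT4 was lost in the fit of the 6 libraries (adjusted p = 0.0501). ATF4 itself, which is regulated at translation, and the ATF4 targets TRIB3, CHAC1, and PSAT1 did not pass the test (LFC 0.25, 0.58, 0.97, and 0.00).

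Of the 30 endoplasmic reticulum genes tested, 3 were higher, none was lower, and 27 had an LFC above 0, with a median of 0.13. In the fit of the 6 libraries none was called, and without replicate 3 of both groups 4 were higher. Of all 12341 genes tested, 1.56% were called higher and 6032 had an LFC above 0. HSPA5, the chaperone BiP of this compartment, was at 1214, 1194, and 1502 CPM with cadmium and 962, 1038, and 937 CPM in non-treated cells (LFC 0.41 ± 0.08, adjusted p = 0.000141), and its call held without any library but not in the fit of the 6 libraries (adjusted p = 0.102). XBP1 had an LFC of 0.41 and HSP90B1, or GRP94, an LFC of 0.38. The XBP1 call was lost in the fit of the 6 libraries (adjusted p = 0.346), without cadmium replicate 3 (0.236), without non-treated replicate 1 (0.146), and without non-treated replicate 3 (0.0752). The HSP90B1 call was lost in the fit of the 6 libraries (adjusted p = 0.191), without cadmium replicate 1 (0.0521), without cadmium replicate 2 (0.0836), without non-treated replicate 1 (0.068), and without non-treated replicate 2 (0.107). Among 19 amino acid transporters, 1 was called, SLC3A2, the heavy chain shared by several of them, at 212, 212, and 207 CPM with cadmium and 129, 133, and 128 CPM in non-treated cells (LFC 0.69 ± 0.10, adjusted p = 9.5e-07). Its replicates lay within a few CPM of each other in both groups. Among the tRNA synthetases, YARS1 was higher (LFC 0.53). The YARS1 call was lost in the fit of the 6 libraries (adjusted p = 0.0768) and without non-treated replicate 2 (0.0504).

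Some immediate-early, secreted, and regulatory genes were higher as well. Of 30 immediate-early and DUSP genes tested, 5 were higher and none was lower, and 2 of these were called in the fit of the 6 libraries. Of all genes tested, 1.56% were higher. IER3 was at 24.1, 24.9, and 34.1 CPM with cadmium and 5.15, 6.76, and 4.91 CPM in non-treated cells (LFC 2.30 ± 0.37, adjusted p = 1.14e-05). ZFP36L1, which encodes an mRNA decay factor, was at 228, 219, and 233 CPM with cadmium and 127, 140.2, and 124 CPM in non-treated cells (LFC 0.80 ± 0.09, adjusted p = 1.89e-09). Both were clear of the non-treated libraries. FOSB had 3 counts or fewer in each non-treated library and was at least 9.04-fold higher (adjusted p = 0.000716), although cadmium replicate 3 held only 2.16 CPM against 9.55 and 11.5. FOSB is among the 5, but with so few non-treated counts it could be called only as higher. It was not tested in the fit of the 6 libraries. ARC had an LFC of 1.41, with its call lost in the fit of the 6 libraries (adjusted p = 0.054), without non-treated replicate 1 (0.0961), and without non-treated replicate 3 (0.0867). FOS, JUN, EGR1, and MYC did not pass the test (LFC 2.80, 0.26, 0.35, and 0.07).

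Outside the lists, the 15 largest rises among genes averaging 50 counts or more included CCL26 and CLU. The chemokine gene CCL26 was at 22.05, 22.3, and 39.2 CPM with cadmium and 2.06, 4.61, and 1.44 CPM in non-treated cells (LFC 3.36 ± 0.44, adjusted p = 6.5e-08). CLU, the extracellular chaperone clusterin, was at 130.2, 132, and 213 CPM with cadmium and 45.8, 46.7, and 32.9 CPM in non-treated cells (LFC 1.91 ± 0.15, adjusted p = 3.4e-16). Replicate 3 was the highest cadmium library for both. All 15 of these rises were called in each of the 9 fits without a library or a replicate number and in the fit of the 6 libraries. Of the 24 YAP, SRF, and actin genes, ANKRD1, at 97.05, 102, and 127 CPM with cadmium and 49.7, 55.3, and 44.7 CPM in non-treated cells (LFC 1.11 ± 0.12, adjusted p = 8.31e-11), and the LIM domain gene FHL2 (LFC 0.49, adjusted p = 4.77e-05) were higher and none was lower. ANKRD1 encodes a muscle and stress-related ankyrin repeat protein. Other genes with an LFC above 1 that were chosen for mention after their values were seen are GADD45B, a stress gene related to GADD45A (LFC 1.40 ± 0.11, adjusted p = 6.96e-17), ID2, an inhibitor of helix-loop-helix factors (LFC 1.45 ± 0.15, adjusted p = 8.87e-12), SAT1, which acetylates polyamines (LFC 1.40 ± 0.15, adjusted p = 6.17e-11), and RGS2, a regulator of G-protein signalling (LFC 1.70 ± 0.24, adjusted p = 7.6e-07).

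The lower genes belonged to few of the lists. The largest fall among genes averaging 50 counts or more, C21orf91, was at 32.3, 21.2, and 24.4 CPM with cadmium and 57.4, 60.6, and 86.8 CPM in non-treated cells (LFC -1.38 ± 0.20, adjusted p = 5.15e-07). FBXO22, a substrate receptor of a ubiquitin ligase, was at 57.95, 60.99, and 46.7 CPM with cadmium and 117, 110.4, and 109.6 CPM in non-treated cells (LFC -1.02 ± 0.13, adjusted p = 9.72e-09). DDB2, which recognizes ultraviolet damage in DNA and is a p53 target, was at 22.7, 21.8, and 32.7 CPM with cadmium and 66.2, 63.9, and 53.1 CPM in non-treated cells (LFC -1.27 ± 0.19, adjusted p = 1.64e-06). The 3 genes were lower in every cadmium library than in any non-treated one. ITGBL1 was at 24.1, 19.8, and 20.1 CPM with cadmium and 37.6, 42.4, and 38.95 CPM in non-treated cells (LFC -0.88 ± 0.16, adjusted p = 0.000119). These 4 of the 15 largest falls were called in all 9 fits without a library or a replicate number, and 6 of the 15 were called in the fit of the 6 libraries. The other 11, among them SLC39A10, did not keep the call in all of them. PCDH17, a protocadherin gene (LFC -0.87), lost it in the fit of the 6 libraries (adjusted p = 0.054) and without replicate 3 of both groups (0.0841). LNPEP, a membrane aminopeptidase gene (LFC -0.74), lost it without cadmium replicate 3 (adjusted p = 0.0655) and without non-treated replicate 1 (0.0957). MUS81, an endonuclease gene (LFC -0.79), lost it in the fit of the 6 libraries (adjusted p = 0.135), without cadmium replicate 2 (0.0891), without cadmium replicate 3 (0.0981), and without non-treated replicate 2 (0.0741). The remaining 8, PPP2R2B, ABHD15, PGM5P2, MCCC1, KLHL13, ZNF22, NEURL1B, and SLC39A10, had an LFC between -1.14 and -0.71 and each lost the call without at least 2 of the single libraries, with an adjusted p of up to 0.228 for ABHD15 without cadmium replicate 3. Of these 8, PGM5P2 was called in the fit of the 6 libraries (adjusted p = 0.0344), and the others had an adjusted p from 0.0779 for SLC39A10 to 0.309 for ZNF22.

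Among the 21 p53 targets tested, 2 were higher, SESN2 and GADD45A, and 1 was lower, DDB2, and 15 had an LFC below 0, with a median of -0.14. Of all 12341 genes tested, 1.56% were called higher, 0.632% were called lower, and 6032 had an LFC above 0. GADD45A, a growth arrest gene, was at 165, 178, and 119.7 CPM with cadmium and 72.4, 72.5, and 115 CPM in non-treated cells (LFC 0.84 ± 0.17, adjusted p = 0.00101). Replicate 3 of the 2 groups was nearly level, and the call was lost in the fit of the 6 libraries (adjusted p = 0.0801), without replicate 1 of both groups (0.111), and without replicate 2 of both groups (0.147). CDKN1A, which encodes the cell cycle inhibitor p21, MDM2, and BAX did not pass the test (LFC 0.41, -0.14, and 0.38). Of the 17 genes of the BCL2 family and death receptors, 1 was higher, PMAIP1, or NOXA (LFC 0.41), and its call was lost in the fit of the 6 libraries (adjusted p = 0.421), without cadmium replicate 1 (0.325), without cadmium replicate 2 (0.112), and without non-treated replicate 1 (0.398).

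Of 31 genes of G2 and mitosis, 1 was lower and none was higher, and 28 had an LFC below 0, with a median of -0.23 against -0.0069 for all genes. In 11 of them all cadmium libraries lay below all non-treated ones, where 7.33% of all genes did so. Of all 12341 genes tested, 0.632% were called lower and 6032 had an LFC above 0. PLK1, a mitotic kinase, was at 194, 232, and 219.5 CPM with cadmium and 293, 327, and 265 CPM in non-treated cells (LFC -0.46 ± 0.10, adjusted p = 0.00293), and its call was lost in the fit of the 6 libraries (adjusted p = 0.127), without cadmium replicate 1 (0.0613), and without non-treated replicate 2 (0.0693). Without replicate 3 of both groups, 5 members were called lower. The proliferation marker MKI67 and the topoisomerase gene TOP2A did not pass the test (LFC -0.33 and -0.22). None of the 33 genes of S phase was called, with a median LFC of -0.06, although without replicate 3 of both groups 1 was higher and 2 were lower.

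No member was called among 28 genes of cholesterol and fatty acid synthesis, 13 mitochondrially encoded genes, 11 tubulins, and 77 cytosolic ribosomal protein genes, the last with a median LFC of -0.0094. In the fit without replicate 3 of both groups, 1 gene of cholesterol and fatty acid synthesis was called higher. In that without replicate 1 of both groups, 1 ribosomal protein gene was called lower. Of 16 NF-kB and cytokine genes, 1 was lower, NFKBIA, the inhibitor of NF-kB, with an LFC of -0.33. Its adjusted p of 0.049 was at the threshold, and the call was lost in each of the 9 fits without a library or a replicate number, where the highest adjusted p was 0.249. Among 35 matrix and integrin genes, MMP3 and TIMP1 were higher and LOXL2 lower. Of all genes tested, 1.56% were higher and 0.632% lower. MMP3, a matrix metalloproteinase gene, was at 3 counts or fewer in each non-treated library and at least 4.23-fold higher, and its call was lost without non-treated replicate 1 (adjusted p = 0.0596). With so few non-treated counts MMP3 could be called only as higher. It was not tested in the fit of the 6 libraries. TIMP1 (LFC 0.43) lost its call in the fit of the 6 libraries (adjusted p = 0.185), without cadmium replicate 2 (0.0669), without cadmium replicate 3 (0.19), without non-treated replicate 2 (0.166), and without non-treated replicate 3 (0.164). LOXL2 (LFC -0.55) lost its call in the fit of the 6 libraries (adjusted p = 0.163), without cadmium replicate 1 (0.0666), without cadmium replicate 2 (0.199), without non-treated replicate 2 (0.105), and without non-treated replicate 3 (0.12). Of 23 glycolysis and hypoxia genes, 1 was higher, GPI (LFC 0.34), and it lost the call in the fit of the 6 libraries (adjusted p = 0.443), without cadmium replicate 3 (0.412), without non-treated replicate 1 (0.0687), without non-treated replicate 2 (0.129), and without non-treated replicate 3 (0.157).

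**Figure D4:**
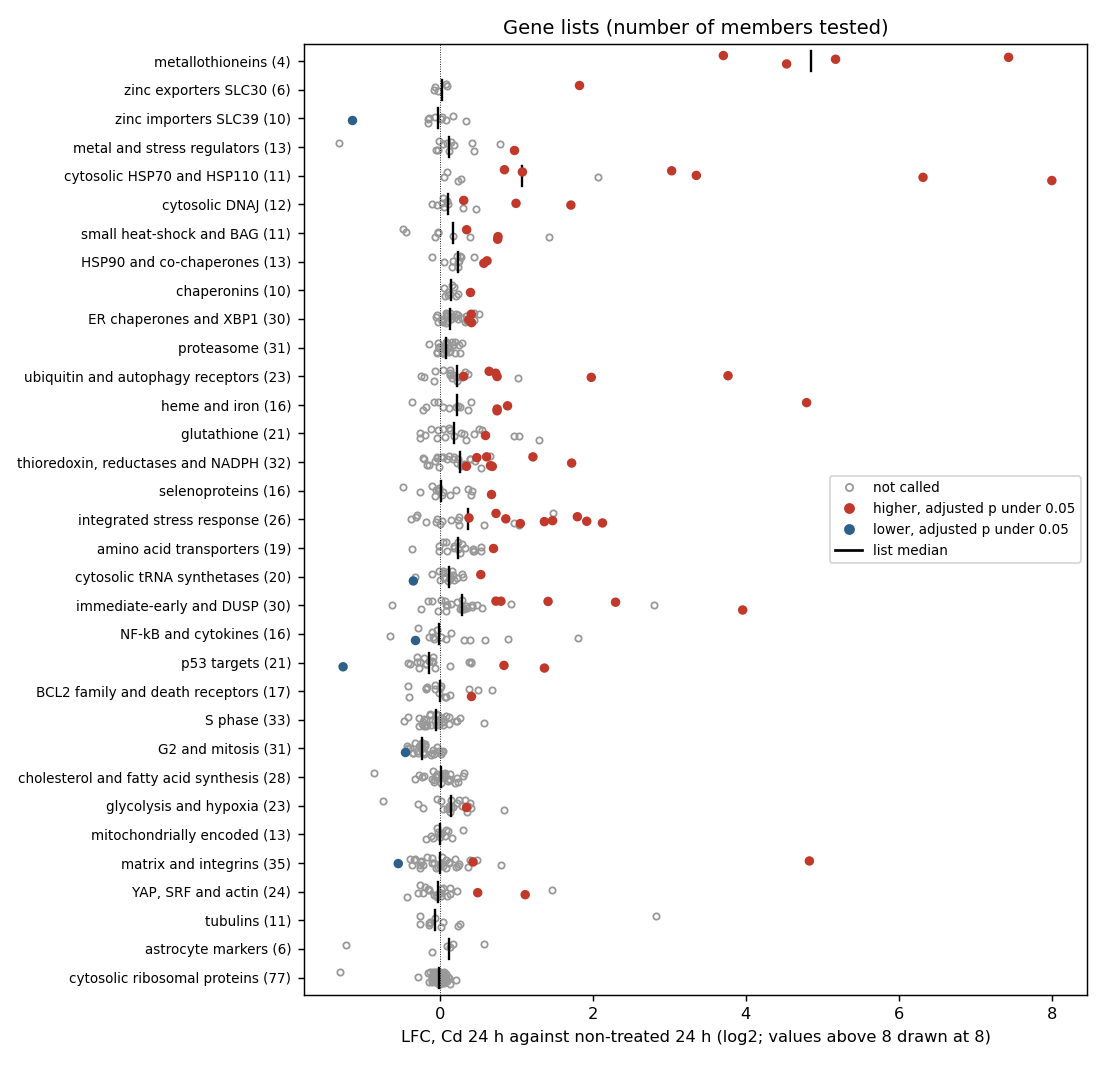
LFC of cadmium against non-treated cells at 24 h for every tested member of 33 gene lists, with filled points for genes at an adjusted p under 0.05, open points for the others, and a bar at the list median. Filled points are most frequent in the metallothionein, HSP70, and integrated stress response lists (100%, 54.5%, and 34.6% of members higher). The metallothionein and HSP70 shares include MT1B, HSPA6, and HSPA2, which were at the floor in non-treated cells and could be called only as higher. They are rarer among chaperonin, endoplasmic reticulum, and glutathione genes (10%, 10%, and 4.76%). The medians of all lists but those of metallothioneins and HSP70 genes lie within 0.4 of 0.

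Replicate 3 of both groups stood apart from the others to a moderate degree. Among 7471 genes that averaged 50 counts or more over the 6 libraries, 184 differed by more than a factor of 2 between cadmium replicate 3 and the mean of the other 2 cadmium libraries, of which 171 were lower in replicate 3, whereas 21 and 45 did so for cadmium replicates 1 and 2. For non-treated replicate 3 the number was 62, of which 45 were higher, with 12 and 32 for replicates 1 and 2. The log2 deviations from the group mean had an SD of 0.278 in cadmium replicate 3 and of 0.215 in non-treated replicate 3, against 0.170 to 0.198 in the other libraries, and the pair of replicates 3 had the lowest correlation of log2 CPM of all pairs, 0.946. Total counts were lowest in cadmium replicate 3, at 2912801. The called genes were selected with these libraries, so that the following values are a description of them. For the 192 higher genes, the median log2 difference from the non-treated mean was 0.70, 0.74, and 0.78 in cadmium replicates 1, 2, and 3, and for the 78 lower genes it was -0.53, -0.55, and -0.51. Cadmium replicate 3 was the cadmium library nearest to the non-treated level in 71 of the 192 and 29 of the 78, against 62 and 25 for replicate 1 and 59 and 24 for replicate 2. Non-treated replicate 3 was the non-treated library nearest to cadmium in 76 of the 192 and 37 of the 78, against 59 and 26 for replicate 1 and 57 and 15 for replicate 2. The 8 called genes whose groups overlapped were TXNRD1, KYNU, TAF13, ARF4, and RSRC2, which were higher, and APH1A, BRD3, and UACA, which were lower. In 7 of them a library of replicate 3 was the one that overlapped. KYNU, kynureninase, was at 50.7, 63.6, and 29.5 CPM with cadmium and 24.5, 22.7, and 30.01 CPM in non-treated cells, and its non-treated replicate 3 lay above its cadmium replicate 3. VIM, like SLC39A14, was called only without replicate 3 of both groups (LFC 0.44, adjusted p = 0.0441).

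The cadmium libraries were next set against the mercury and the arsenic libraries of 24 h directly, each at its own concentration, in comparisons that share the cadmium libraries. Cadmium and mercury differed in 2472 genes, of which 1197 were higher with cadmium (9.7%) and 1275 lower (10.3%), and cadmium and arsenic in 1254 genes, 736 higher (5.96%) and 518 lower (4.2%). MT2A and MT1E were higher with cadmium than with either other metal. MT2A had a mean of 22872 CPM with cadmium, 2922 with mercury, and 5674 with arsenic (LFC 2.97, adjusted p = 2.16e-19 against mercury and LFC 2.01, adjusted p = 6.57e-13 against arsenic). MT1E stood at 3798, 332, and 684 CPM in the same order (LFC 3.52, adjusted p = 6.27e-37 and LFC 2.47, adjusted p = 1.24e-29). SLC30A1 was also higher with cadmium than with mercury (LFC 0.66, adjusted p = 4e-05) and arsenic (LFC 0.76, adjusted p = 4.57e-06). HMOX1, GCLM, and SQSTM1 were lower with cadmium than with either. HMOX1 had a mean of 359 CPM with cadmium, 1905 with mercury, and 2417 with arsenic (LFC -2.41, adjusted p = 1.08e-23 and LFC -2.75, adjusted p = 1.3e-26). The difference of GCLM from mercury (LFC -1.44, adjusted p = 2.99e-20) was close to that from arsenic (LFC -1.36, adjusted p = 2.7e-19). SQSTM1 had LFC -1.37, adjusted p = 4.1e-20 against mercury and LFC -0.96, adjusted p = 1.72e-13 against arsenic. Heat-shock genes were compared with both metals too. HSPA1A had a mean of 631 CPM with cadmium and 724 with mercury, a difference that did not pass the test (LFC -0.20, adjusted p = 0.328, with an LFC between -0.30 and -0.08 in 11 alternative fits), and 24.1 with arsenic (LFC 4.72, adjusted p = 6.18e-33). DNAJB1 was lower than with mercury (LFC -0.62, adjusted p = 2.57e-05) and higher than with arsenic (LFC 1.87, adjusted p = 2.44e-20). HSPA6 was also lower than with mercury (LFC -0.93, adjusted p = 7.48e-07) and higher than with arsenic, at a mean of 204 CPM with cadmium and 1.52 CPM with arsenic (adjusted p = 6.18e-33). C21orf91 was lower with cadmium than with either (LFC -0.95, adjusted p = 0.000258 and LFC -1.92, adjusted p = 3.66e-12). FBXO22 was lower than with mercury (LFC -0.42, adjusted p = 0.0143), a call lost without cadmium replicate 3 (adjusted p = 0.12) and without mercury replicate 3 (0.231), and lower than with arsenic (LFC -1.04, adjusted p = 2.51e-09). The other called differences given here held in all 6 fits that left out 1 library of the pair of groups.

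Of the 270 genes called at 24 h, 245 had the same sign of LFC at 12 h against the non-treated cells of 12 h, and 163 were also called there with that sign. The matching shares over all genes tested were not counted, so that these numbers only describe the 270 genes. The difference between the cadmium effects of the 2 time points was called in 10 genes with a higher LFC at 24 h (0.081% of the genes tested) and in 37 with a lower one (0.3%). GCLM had an LFC of 1.65 at 12 h and of 0.59 at 24 h (difference -1.06 ± 0.13, adjusted p = 6.36e-07). HSPA5 had an LFC of 1.07 at 12 h and of 0.41 at 24 h (difference -0.65 ± 0.11, adjusted p = 0.000211). SESN2 had an LFC of 2.55 at 12 h and of 1.37 at 24 h (difference -1.19 ± 0.25, adjusted p = 0.00921). These 3 genes rose at both times and their smaller LFC at 24 h was called without each of the libraries concerned. BAG3 had an LFC of 1.65 at 12 h and of 0.76 at 24 h (difference -0.89 ± 0.18, adjusted p = 0.0084), and the difference was lost without cadmium replicate 3 of 24 h (adjusted p = 0.0590) and non-treated replicate 1 of 12 h (0.0682). MT2A had an LFC of 2.66 at 12 h and of 3.71 at 24 h (difference 1.05 ± 0.26, adjusted p = 0.0476), the reverse order, and this call was lost in 11 of the 12 fits that left out 1 of the libraries concerned (adjusted p up to 0.269, without non-treated replicate 1 of 12 h). MT1E and MT1X showed no called difference (difference -0.23 and -0.17, adjusted p = 0.658 and 0.907), nor did HSPA1A (0.51, adjusted p = 0.633) and HMOX1 (-0.80, adjusted p = 0.191).

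**Figure D5:**
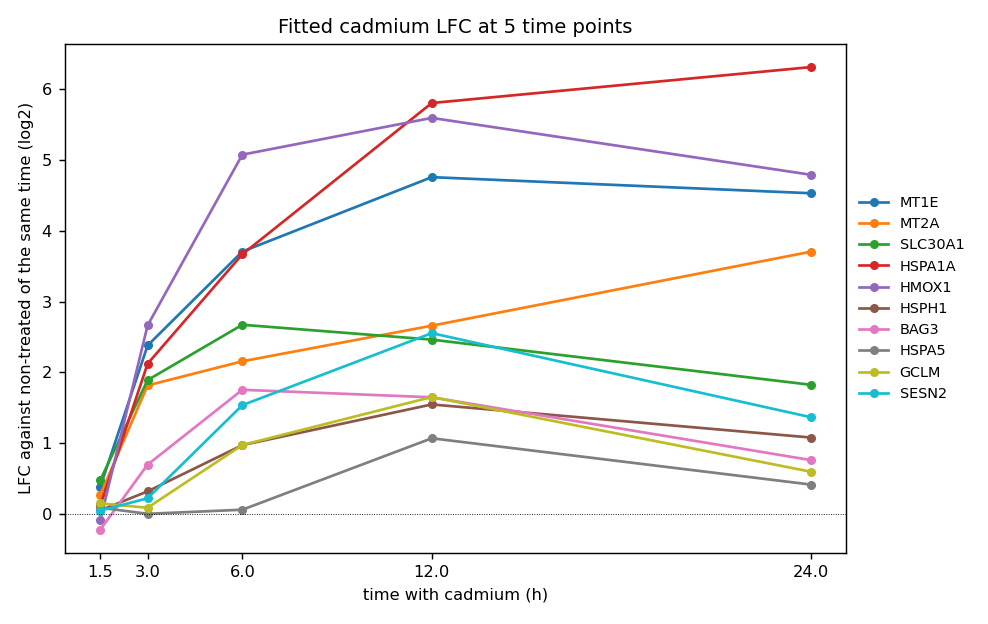
Fitted LFC of 10 genes in cadmium against non-treated cells of the same time, over the 5 time points from 1.5 to 24 h, from 3 libraries per group and without error bars. HSPA5, GCLM, SESN2, BAG3, HSPH1, HMOX1, and MT1E lie lower at 24 h than at 12 h, while MT2A and HSPA1A lie higher. The differences of HMOX1, MT1E, and HSPA1A were not called.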

How the data were processed

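RNA was taken from 1321N1 cells and sequenced from the 3′ end. Per the labels and methods, the authors used STAR 2.7.9a for alignment to GRCh38, counted them by strand in GENCODE genes with summarizeOverlaps in Union mode, and deposited raw counts for 62703 genes in 60 libraries. None of the 92 spike-in sequences had a count.

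From these counts, edgeR 4.0.16 (R 4.3.3) was run with TMM, filterByExpr (minimum count 10, minimum total 15), and a quasi-likelihood fit of 20 groups over all libraries, with Benjamini-Hochberg adjustment over 12341 genes and a threshold of 0.05. All libraries entered the fit so that the groups share 1 estimate of the spread. Total counts were 2912801 to 4404609 per library of the comparison, and the floor of 3 counts covers counting error only. The standard errors come from the quasi-likelihood fit and include the spread between libraries. Named are up to 4 called members per list, all tested metallothioneins, and the tested marker genes. The 15 largest rises and falls among called genes averaging 50 counts or more are named as well. Of the zinc transporters tested, the called ones, SLC39A14, and SLC39A8 are named in the text, and the others are given by their range. Further list members (such as DDIT3, GDF15, DDIT4, CEBPB, NQO1, HSPA2, HSPA14, and members that were not called) and KYNU were named after their values were seen. A called list member is not reported here. The genes compared and the gene lists were chosen with earlier results of these data known.

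Alternatives were DESeq2 1.42.0 with and without ashr 2.2.63 shrinkage, RLE size factors, no filter and a filter at 30 counts, a test of an LFC beyond 1, the 6 libraries alone, a replicate block, and leaving out each library or replicate number. The fit of the 6 libraries with the block was added after seeing the data. Replicates of a group differed beyond counting error. Deviations of same-numbered libraries from their group means correlated at -0.19, -0.25, and -0.51, so the numbers were not taken to pair the samples. The methods were tested on simulated data. These were drawn with the fitted spread and without a replicate 3 that stood apart, so they do not cover that feature. Promoter sequences are from RefSeq (GRCh38.p14), which held one for 9447 tested genes. The 50-base stretches of the last 400 transcript bases were searched in GENCODE 44, which gives 12263 of the tested genes the same coordinates.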

Additional observations from a re-analysis of the deposited data

Results flagged for a closer look

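Among the genes named above and the called list members, 8 differed in their cadmium effect between 24 h and 12 h by the interaction term of edgeR's quasi-likelihood fit over all 60 libraries, with adjusted p over 12341 genes. The LFC at 24 h minus that at 12 h was -1.19 for SESN2 (adjusted p = 0.00921), -1.06 for GCLM (6.36e-07), and -0.65 for HSPA5 (0.000211), and these calls held in all 12 fits that left out 1 library. It was -0.89 for BAG3 (adjusted p = 0.0084), lost in 2 of the 12 fits, with the values given above. It was -2.31 for GDF15 (adjusted p = 0.0153), lost without non-treated replicate 2 of 24 h (0.0826), without non-treated replicate 3 of 24 h (0.0732), and without non-treated replicate 1 of 12 h (0.134), and DESeq2 gave no adjusted p for it. It was -0.85 for TXNRD1 (adjusted p = 0.0399), lost in 8 of the 12 fits with values up to 0.273 (without non-treated replicate 3 of 24 h). It was -0.47 for HSPH1 (adjusted p = 0.0317), lost in 8 of the 12 fits with values up to 0.111 (without non-treated replicate 2 of 12 h) and without a filter on low counts (0.144). It was 1.05 for MT2A (adjusted p = 0.0476), the only one of the 8 above 0, lost in 11 of the 12 fits and with the stricter filter (0.0524).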

How the results depend on the processing

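Against 192 genes higher and 78 lower (65 and 12 beyond an LFC of 1), leaving out 1 library or 1 replicate number gave 112 to 297 higher and 32 to 121 lower (54 to 119 and 5 to 12 beyond an LFC of 1). The upper ends of 297, 121, and 119 came without replicate 3 of both groups, and that of 12 without cadmium replicate 1. The fit of the 6 libraries gave 64 higher and 10 lower (38 and 4 beyond an LFC of 1), and with the replicate block added after seeing the data 34 and 2 (30 and 2). Without a filter on low counts 47 were lower (6 beyond an LFC of 1). The test of an LFC beyond 1 called 25 higher and 0 lower, and shrinkage with ashr left 3 lower beyond an LFC of 1. DESeq2 called 227 higher and 97 lower. The replicate block in all 60 libraries gave 192 higher and 72 lower and kept 257 of the 270 calls. Whether the replicate numbers pair the samples is not known, and they were not taken to do so. Where a call was lost without single libraries, losses without a replicate number of both groups are not repeated in the text above. None of the 87 called genes followed changed its sign in an alternative that tested it. They were selected with these libraries, so that this is only a description of them. Of the 21 genes that were not called, 14 changed sign, among them SLC39A14 (-0.25 to 0.56 without a library or replicate number), SLC39A8 (-0.77 to 0.34), VIM (-0.04 to 0.44), and SOX9 (-0.09 to 0.40). Leaving out 1 library gave 722 to 1185 genes higher and 942 to 1200 lower with cadmium than with mercury, and 466 to 658 higher and 347 to 505 lower than with arsenic. For the difference between 24 h and 12 h (10 and 37 genes) it gave 2 to 14 higher and 14 to 45 lower, no filter gave 24 higher, and DESeq2 gave 22 and 73. Low-count genes were limited by depth, with a floor of 3 counts in libraries of 2912801 to 4404609.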
